A study of Sus scrofa with 4 samples.

Results

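The cells described here are a small group of porcine pancreatic ductal organoid (PPDO) cells whose summed levels of *SPP1* and *WFDC2* were high, called SPP1 and WFDC2 cells below. They were chosen by a score, the mean of ln(1 + UMIs per 10000) of *SPP1*, *WFDC2*, *CFD*, *TCN1*, *MUC13*, *GABRP* and *KRT4* in each cell, where a UMI (unique molecular identifier) is a counted molecule. The highest 3% of each PPDO library were kept, which gave 267 of 8885 cells in PPDO 1 and 220 of 7337 cells in PPDO 2. In all, 487 of 16222 PPDO cells were chosen, and the whole series held 26154 cells after filters.

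PPDO are cultures that grow from pancreatic ducts picked by hand and embedded in Cultrex matrix. Their medium held WNT3a, R-spondin, noggin, FGF10, EGF, the TGF-beta receptor inhibitor A83-01, gastrin, prostaglandin E2 and nicotinamide. The 2 sequenced lines came from a late postnatal and an adult pig of German landrace background and differed in passage, but no label ties either library to its line. The paper states that by the passages sequenced most cells had shifted to a less mature ductal state. In its bulk RNA comparison with the single-cell clusters, early passages were mostly assigned to a ductal cluster. The levels of duct genes given here therefore describe the passages sequenced and not PPDO in general. The comparison group was dissociated pancreas of 2 late postnatal landrace pigs, a wild-type animal and an *INS*-eGFP animal whose beta cells carry eGFP under the porcine insulin promoter, processed on different days. Hand-picked ducts were used for the first pancreas, and sorted duct-binding lectin positive, eGFP positive and unselected cells were pooled for the other. Live cells were sorted in both groups, and group, culture and dissociation coincide, so their contributions cannot be told apart. The labels do not name the source animal of a library, and p-values below measure the spread between 2 libraries per group.

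Pancreatic ducts carry digestive enzymes to the gut and add a bicarbonate-rich fluid. Secretin acts on its receptor SCTR, cyclic AMP opens the apical chloride channel CFTR, and bicarbonate enters the cell through the cotransporter SLC4A4. Larger ducts also hold cells that secrete mucins, trefoil factors and defence proteins. Organoid cultures can hold cells with basal and squamous keratin programs beside simple epithelial cells, and simple duct epithelium is marked by the keratins KRT7, KRT8 and KRT18.

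Pairs of values below are in library order, 1 before 2. CPM are UMIs per 1000000 UMIs after summing the cells of a set within a library. The summed UMIs of the chosen cells were 9087240 and 7479179, so 3 counts, taken as the smallest level that can be told from 0, are 0.330 and 0.401 CPM. The 4 libraries held 87043513 to 366263520 UMIs with a median of 7402 to 35310 per barcode. Chosen cells had a median of 34292 and 30869 UMIs, against 34175.5 and 34521 in other PPDO cells. Mitochondrial UMIs were 0.345% and 0.331% in chosen cells and 0.399% and 0.390% in other cells. Scrublet scores among the highest 5% of the library were found in 8 of 267 chosen cells (3.0%, 95% exact Clopper-Pearson interval 1.30 to 5.82%) and 9 of 220 (4.09%, 1.89 to 7.62%). These intervals cover counting error only. The 2 PPDO libraries shared 18 cell barcodes, none of them of a pair of chosen cells.

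Most PPDO cells had no UMI of any of these genes, and the chosen cells formed the tail of the score. Other cells had a median score of 0, and 52.2% and 65.9% of them had a score of exactly 0. Chosen cells ranged from 0.525 to 2.21 with a median of 0.937 in PPDO 1, and from 0.314 to 1.96 with a median of 0.660 in PPDO 2. The scores ran on without a gap at the threshold. The last 3 cells inside it had 0.525, 0.530 and 0.533 in PPDO 1 and the first 3 outside had 0.524, 0.522 and 0.519. In PPDO 2 the values inside were 0.314, 0.315 and 0.315 and those outside 0.313, 0.310 and 0.310. A fixed share of 3% therefore meant a lower score in PPDO 2. With the PPDO 2 threshold 439 cells of PPDO 1 would be chosen, and with the PPDO 1 threshold 138 cells of PPDO 2.

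**Figure D1:**
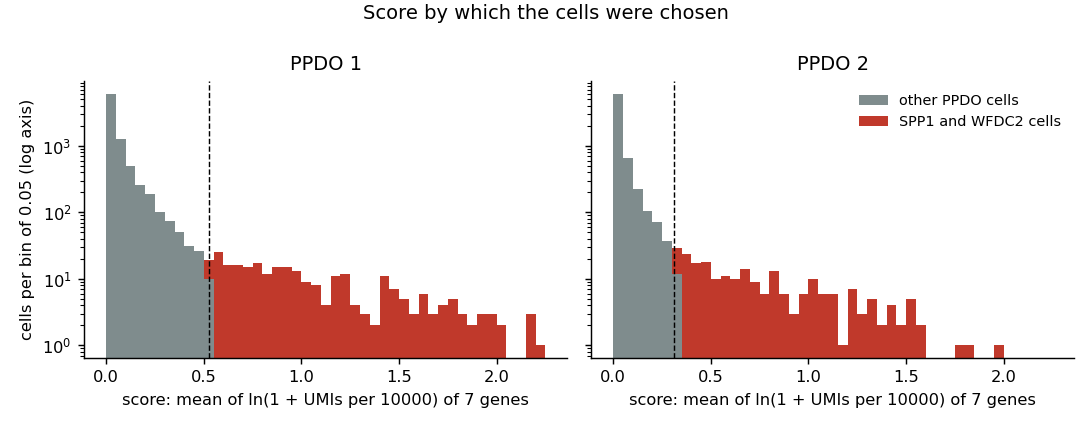
Number of cells per score bin (log axis) in each PPDO library, with the chosen cells in red, other PPDO cells in grey and the lowest chosen score as a dashed line. Chosen cells spread from 0.525 to 2.21 in PPDO 1 and from 0.314 to 1.96 in PPDO 2, with no gap at the line.

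Chosen cells with UMIs of several rule genes were more common in PPDO 1. The rule used these same values and its threshold was higher in PPDO 1, so the shares are a description. Of the chosen cells, 86.9% and 56.8% had UMIs of at least 4 of the 7 genes, against 1.24% and 0.225% of other cells, and 44 and 7 chosen cells had all 7. Chosen cells held 64.5% and 71.0% of all UMIs of these genes in their library.

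The rule genes are given as a description, since they chose the cells. *SPP1* encodes osteopontin, a secreted phosphoprotein made by duct cells of several organs. It had 490 and 565 CPM in chosen cells and 5.56 and 4.08 CPM in other PPDO cells. *WFDC2*, a secreted protein of the whey acidic protein family, had 377 and 132 CPM against 12 and 5.28 CPM. *CFD* encodes complement factor D, the serine protease that starts the alternative pathway, and had 519 and 145 CPM against 3.94 and 1.42 CPM. *TCN1*, the vitamin B12 binder haptocorrin, had 824 and 874 CPM against 17.2 and 9.00 CPM. It was the rule gene found in the largest share of chosen cells in both libraries. At 3000 UMIs per cell, 75.8% and 68.9% of chosen cells had a *TCN1* UMI, against 3.74% and 2.15% of other PPDO cells, and without thinning the shares were 94.8% and 90.0% against 15.3% and 9.50%.

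The other members of the rule are a mucin, a channel subunit and a keratin. *MUC13*, a transmembrane mucin of the apical surface, had 87.2 and 26.9 CPM in chosen cells and 1.00 and 0.569 CPM in other cells. *GABRP*, the pi subunit of the GABA-A receptor, had 230 and 112 CPM against 8.93 and 3.56 CPM. *KRT4*, a keratin of stratified mucosa that does not cornify, had 407 and 186 CPM against 1.66 and 0.545 CPM, and 48.7% and 22.7% of chosen cells had a UMI of it. The values of PPDO 2 were lower than those of PPDO 1 for *WFDC2*, *CFD*, *MUC13*, *GABRP* and *KRT4*, and higher for *SPP1* and *TCN1*.

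In the pig reference annotation of RefSeq (Sscrofa11.1), which is not the in-house annotation used for counting, these genes are protein coding and lie apart. *SPP1* is at chr8:131077786-131085334, *MUC13* at chr13:135416709-135446337, *KRT4* at chr5:18091742-18099086, *GABRP* at chr16:53205616-53228765 and *WFDC2* at chr17:47816452-47824087. *CFD* at chr2:77509792-77511988 and *TCN1* at chr2:11633377-11646261 share a chromosome but are not neighbours.

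Primary ductal-like cells, 2186 and 1188 cells named from markers that include *CFTR*, *SCTR* and *PKHD1*, had *SPP1*, *WFDC2* and *CFD* and low levels of the others. Their *SPP1* level was 1778 and 913 CPM, their *WFDC2* level 507 and 315 CPM and their *CFD* level 2546 and 2125 CPM. *TCN1* had 23.7 and 46.2 CPM, *MUC13* 6.26 and 3.90 CPM, *GABRP* 0.251 and 0.315 CPM and *KRT4* 0.411 and 0.0789 CPM. At 3000 UMIs per cell, 65.1% and 56.6% of primary ductal-like cells had a *WFDC2* UMI, at median depths of 17895.5 and 20558.5 UMIs before thinning. In immune-like cells, which should lack *WFDC2*, the shares were 4.29% and 2.90% at median depths of 6695 and 9128.5 UMIs. *TCN1* was in 0.964% and 1.18% of the thinned primary ductal-like cells, and in none of the thinned immune-like cells. *CFD* was not particular to duct cells in the organ, with 1075 and 1045 CPM in endothelial-like cells.

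**Figure D2:**
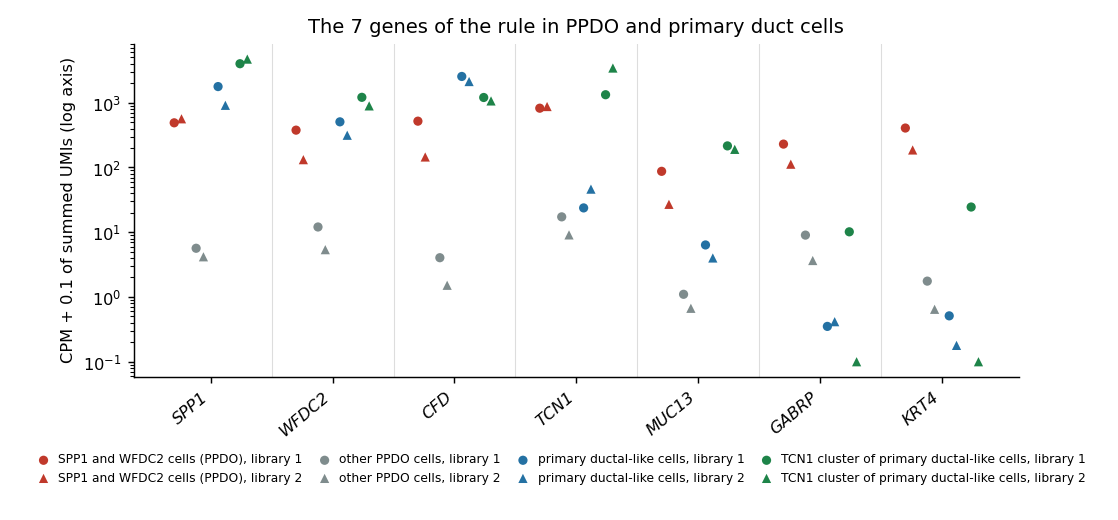
CPM + 0.1 (log axis) of the 7 rule genes in SPP1 and WFDC2 cells, other PPDO cells, primary ductal-like cells and a small cluster of primary ductal-like cells with *TCN1*, with circles for library 1 and triangles for library 2. Chosen PPDO cells lie near primary ductal-like cells for *WFDC2* and above them for *TCN1*, *MUC13*, *GABRP* and *KRT4*.

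Each rule gene was also read in cells chosen by the other 6. This is a description, since all 7 genes had been taken from a clustering of these same cells and 82.7% to 99.1% of the cells chosen again were the same cells. When the highest 3% were taken without it, the left-out gene was higher than in the remaining cells by 3.96 to 6.90 on the log2(CPM + 1) scale, with a median of 5.21 over 7 genes and 2 libraries. The lowest value was that of *GABRP* in PPDO 2 and the highest that of *KRT4* in PPDO 1. Choosing cells by the mean of these genes lowers the correlation between them, so values within the chosen cells are no trait of the cells. Over the 21 pairs of rule genes, Pearson's r across chosen cells had a median of 0.075 in PPDO 1 and 0.079 in PPDO 2. The highest pairs were *SPP1* with *GABRP* in PPDO 1 (0.38) and *WFDC2* with *TCN1* in PPDO 2 (0.44). Across all PPDO cells the median was 0.38 and 0.28, with the cells at 0 included. Each correlation is across 267 or 220 chosen cells of 1 library, which share depth and the rule, and is a description.

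The label of a duct-like cell was then checked against duct genes, and the data met it only in part. In a Leiden clustering of all PPDO cells, made without the score but with these genes in the data, 210 of 267 (78.7%) and 157 of 220 (71.4%) chosen cells fell in cluster 7, where they made up 66.2% and 75.8% of the cells. Its leading genes included all of the rule genes except *MUC13*. The summed level of the 9 ductal markers was 2542 and 2217 CPM in chosen cells, 892 and 783 CPM in other PPDO cells and 28688 and 32461 CPM in primary ductal-like cells, and *KRT7* alone gave 1703 and 1722 CPM of it in chosen cells. *AQP1*, a water channel, had no UMI in chosen cells of either library. It was low in primary ductal-like cells as well, with 59 and 24 UMIs (1.35 and 0.946 CPM). Of these, 12 and 23 UMIs were in their small cluster with *TCN1*. Because the ductal marker level of chosen cells lay so far under that of the organ, they are called by *SPP1* and *WFDC2*, which head the leading genes of cluster 7. The name does not hold for each chosen cell. A UMI of *SPP1* was found in 77.5% and 72.7% of chosen cells, and one of *WFDC2* in 82.8% and 63.6%. In the chosen cells of PPDO 2 the *WFDC2* level, 132 CPM, was under those of *TCN1*, *SPP1*, *KRT4* and *CFD*.

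Among genes of duct secretion, the chloride channel and the secretin receptor had a higher CPM level in chosen than in other PPDO cells, still far under the organ. Both were under 10 CPM in the chosen cells of PPDO 2, the minimum for the counts below, and are in none of them. *CFTR* had 13.3 and 7.89 CPM in chosen cells, 0.661 and 0.424 CPM in other PPDO cells and 942 and 795 CPM in primary ductal-like cells. These UMIs came from 20 and 11 chosen cells, and 1 cell held 71 of 121 in PPDO 1 and another 24 of 59 in PPDO 2. Without that cell the *CFTR* level was 5.50 and 4.68 CPM. *SCTR*, the secretin receptor, had 15.1 and 5.35 CPM in chosen cells, 0.709 and 0.659 CPM in other cells and 577 and 964 CPM in primary ductal-like cells. *SLC4A4* had 670 and 387 CPM in chosen cells and 410 and 325 CPM in other cells, far under the 22268 and 25902 CPM of primary ductal-like cells. *PKHD1*, the gene of the ciliary protein fibrocystin, stayed at 1.32 and 0.535 CPM against 2400 and 2574 CPM in the organ.

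Among transport genes over that minimum, 4 were higher in chosen cells by at least 1 on the log2(CPM + 1) scale in both libraries, which is called past the fold below. *SLC12A2*, the basolateral sodium, potassium and chloride cotransporter, had 132 and 91.6 CPM against 25.2 and 21.6 CPM in other PPDO cells and 17.5 and 2.80 CPM in primary ductal-like cells. *ATP1B1*, a subunit of the sodium pump, had 324 and 363 CPM against 124 and 151 CPM, *KCNMA1*, a potassium channel, 21.7 and 29.1 CPM against 6.40 and 11.6 CPM, and *CA2*, a cytosolic carbonic anhydrase, 12.9 and 21.5 CPM against 3.59 and 7.30 CPM. *CA12*, a membrane carbonic anhydrase, and *ANO1*, a calcium-gated chloride channel, went the other way. *CA12* had 115 and 109 CPM against 275 and 282 CPM and *ANO1* 31.1 and 31.4 CPM against 78.0 and 72.4 CPM. Primary ductal-like cells had 220 and 233 CPM of *CA12* and 0.366 and 0.473 CPM of *ANO1*. The lower *ANO1* level was thus nearer that of the organ, and the lower *CA12* level was not.

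Counts past the fold are read against all genes. Of 8614 genes with at least 10 CPM in the higher set of cells in both libraries, 343 (3.98%) were past the fold and higher in chosen cells, and 186 (2.16%) were past it and lower. The cells were chosen on the same data, so these counts are a description and carry no test. The count of genes in either direction moved from 529 to 836 for the highest 1% of each library, to 832 without the CPM minimum, and to 886 or 881 with PPDO 2 or PPDO 1 alone. Of 14 duct transport genes measured, 4 were higher and 2 lower. Their median difference was 0.57 and 0.10 on the log2 scale, beside -0.03 and -0.05 over all genes.

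Transcription factors of duct cells showed a similar partial pattern. *SOX9*, which maintains duct and progenitor cells, had 20.5 and 10.8 CPM in chosen cells, 2.76 and 1.17 CPM in other PPDO cells and 321 and 352 CPM in primary ductal-like cells. It was found in 63 and 37 chosen cells. *ELF3*, an epithelial ETS factor, had 42.0 and 46.0 CPM against 9.22 and 7.51 CPM in other cells, and *TFCP2L1*, a grainyhead family factor, 56.6 and 25.7 CPM against 7.89 and 5.53 CPM. *HNF4G*, a nuclear receptor of gut epithelium, had 25.8 and 17.1 CPM against 10.5 and 7.02 CPM. These 4 genes were the members past the fold among 11 measured, none was lower, and the list median was 0.51 and 0.43.

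Factors with levels under the CPM minimum were not counted. *FOXA2* had 2.97 and 4.28 CPM in chosen cells and 0.0993 and 0.0118 CPM in others, *PROX1* 3.08 and 1.74 CPM against 0.257 and 0.0942 CPM, and *HNF4A* 3.41 and 2.67 CPM against 0.449 and 0.534 CPM. In primary ductal-like cells *PROX1* had 294 and 331 CPM and *FOXA2* 60.8 and 65.7 CPM. *ONECUT1*, a duct factor with 520 and 769 CPM in the organ, had 1 UMI in the chosen cells of PPDO 1 and none in those of PPDO 2. *EHF* and *KLF5* were close to their level in other PPDO cells, with differences of at most 0.26 on the log2 scale. *EHF* had 414 and 464 CPM against 419 and 387 CPM, and *KLF5* 411 and 558 CPM against 471 and 543 CPM.

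**Figure D3:**
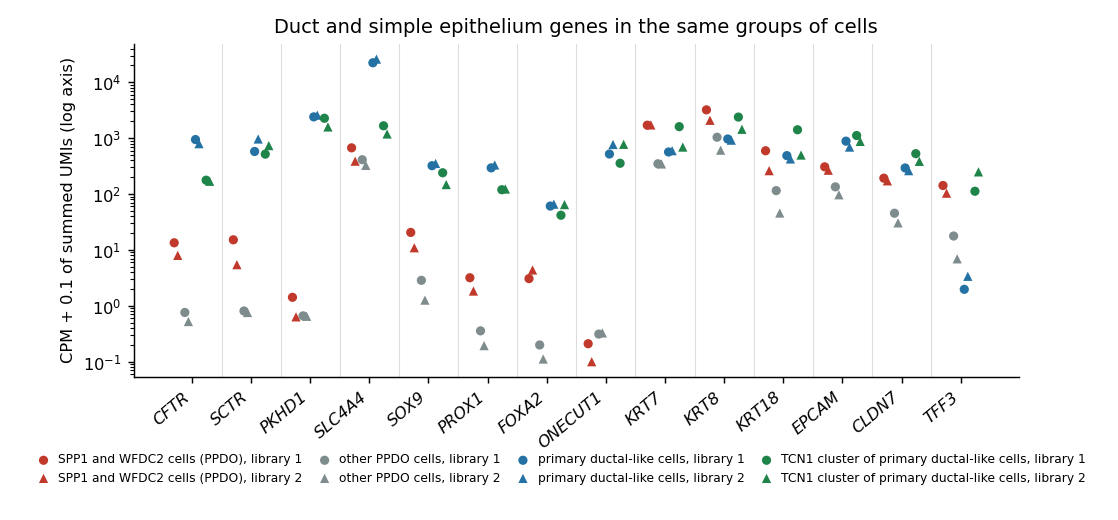
CPM + 0.1 (log axis) of duct and simple epithelium genes in the same 4 sets of cells, with circles for library 1 and triangles for library 2. From *CFTR* to *ONECUT1* the chosen cells lie far under primary ductal-like cells. From *KRT7* to *TFF3* the chosen cells lie near or above them, except for *EPCAM*, where they lie under them.

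Genes of simple epithelium were higher in the chosen cells. *KRT7* had 1703 and 1722 CPM in chosen cells, 348 and 345 CPM in other PPDO cells and 565 and 596 CPM in primary ductal-like cells, so the chosen cells lay above both. *KRT8* had 3206 and 2084 CPM against 1037 and 608 CPM in other cells, and its partner *KRT18* 594 and 262 CPM against 115 and 45.6 CPM. *EPCAM*, an adhesion protein of simple epithelia, had 306 and 266 CPM against 134 and 96.8 CPM. The tight junction claudins *CLDN3*, *CLDN4* and *CLDN7* were higher as well, *CLDN7* with 192 and 172 CPM against 45.2 and 30.4 CPM. Of 13 genes measured 7 were higher past the fold and none lower, with a median of 1.18 and 1.77. High keratin levels were not particular to the chosen cells. Cells of cluster 7 that were not chosen had 1314 and 1346 CPM of *KRT7* and 2528 and 1760 CPM of *KRT8*. Their *KRT18* level was 364 and 177 CPM. Chosen cells outside the cluster had 953 and 907 CPM of *KRT7*. *KRT19* could not be matched to a feature and was not analysed here.

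Most secretory and defence genes of mucosa that were measured were also higher. *TFF3*, a trefoil peptide that protects mucosa, had 142 and 103 CPM in chosen cells and 17.6 and 6.83 CPM in others. *AGR2*, a disulfide isomerase of mucin-secreting cells, had 236 and 181 CPM against 85.2 and 88.9 CPM, and *LCN2*, an iron-siderophore binder, 88.4 and 81.6 CPM against 36.1 and 25.5 CPM. *CLU*, a secreted chaperone, had 294 and 208 CPM against 109 and 57.7 CPM, the complement component *C3* 24.0 and 32.2 CPM against 8.18 and 6.98 CPM, and *VTCN1*, an inhibitory ligand of T cells, 35.0 and 40.5 CPM against 6.25 and 8.67 CPM. These 6 of 8 genes measured were past the fold, with a list median of 1.44 and 1.76. *SLPI*, of the same list, went both ways, with differences of -1.21 in PPDO 1 and 1.69 in PPDO 2. In the chosen cells of cluster 7 it was under other PPDO cells in both libraries, as given further below. *PIGR*, the receptor that carries IgA across mucosa, had 5.17 and 7.35 CPM against 0.0993 and 0.0432 CPM, under the minimum. The mucin genes of the list, *MUC1*, *MUC4*, *MUC16*, *MUC20*, *MUC5AC* and *MUC5B*, were among the 12 of its 35 genes that could not be matched and were not analysed here.

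Beside the lists, *S100A1*, *PLAT* and *MMP13* led the genes of at least 50 CPM when ranked by the smaller of their differences in the 2 libraries. *S100A1*, a calcium-binding protein, had 322 and 509 CPM in chosen cells and 12.1 and 7.78 CPM in others, and 406 and 546 CPM in primary ductal-like cells. *PLAT*, the tissue plasminogen activator, had 56.8 and 74.7 CPM against 1.84 and 0.545 CPM. *MMP13*, a collagenase, had 56.7 and 52.4 CPM against 3.1 and 1.92 CPM, while primary ductal-like cells had 0.251 and 0.552 CPM. *MAL*, a proteolipid of apical transport, had 534 and 263 CPM against 42.2 and 11 CPM. *GPRC5A*, an orphan receptor induced by retinoic acid, had 384 and 322 CPM against 27.7 and 43.7 CPM. *MDK*, the growth factor midkine, had 125 and 85.3 CPM against 17.7 and 10.7 CPM, and *LGALS1*, a galectin, 257 and 274 CPM against 14.7 and 43.3 CPM.

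The other genes named by the same rule were *SORBS2*, *GLIS3*, *LY6E* and *LIPH*. *GLIS3*, a zinc finger factor of pancreas and kidney, had 116 and 137 CPM against 16.2 and 21.0 CPM in other PPDO cells and 1533 and 1878 CPM in primary ductal-like cells. *SORBS2*, a cytoskeletal adaptor, had 511 and 412 CPM against 75.1 and 46.6 CPM, *LIPH*, a membrane lipase, 128 and 141 CPM against 22.5 and 18.5 CPM, and *LY6E*, a surface protein with a lipid anchor, 60.2 and 131 CPM against 4.81 and 21.8 CPM.

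Receptors and targets of WNT signalling were lower in the chosen cells. *LGR6*, an R-spondin receptor, had 18.8 and 28.2 CPM against 72.8 and 86.6 CPM in other PPDO cells, and its relative *LGR5* 7.59 and 4.81 CPM against 26 and 11.8 CPM. The nuclear factor *LEF1* had 9.24 and 7.49 CPM against 34.3 and 26.9 CPM. Negative feedback targets were lower too, *AXIN2* with 8.14 and 4.55 CPM against 27.7 and 23.9 CPM and *ZNRF3* with 27.8 and 21.1 CPM against 70.9 and 62.1 CPM. With *TNFRSF19* and *APCDD1* these were 7 of 12 genes measured, and none was higher. The list median was -1.48 and -1.26. *TCF7L2*, *RNF43* and *CTNNB1* differed by less than 0.5, and *LGR4* had 62.6 and 68.5 CPM against 112 and 101 CPM.

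Basal genes were lower in part. *NGFR*, a neurotrophin receptor of basal cells, had 22.8 and 38.0 CPM against 94.3 and 90.1 CPM in other PPDO cells. *IGFBP6* had 14.3 and 44.7 CPM against 60.9 and 189 CPM, and *SNAI2*, a factor that represses epithelial genes, 3.08 and 4.41 CPM against 15.4 and 19.1 CPM. These 3 of 17 genes were past the fold, and none was higher, with a median of -0.83 and -0.63. *KRT5*, the basal keratin, had 1370 and 5191 CPM against 5546 and 7706 CPM, so only PPDO 1 was past the fold. Inside cluster 7 the chosen cells had 1203 and 2573 CPM of *KRT5*, past the fold in both libraries, and those of PPDO 2 outside it 10610 CPM. *TP63*, the basal master factor, had 276 and 357 CPM against 563 and 594 CPM, while primary ductal-like cells had 0.274 and 0.513 CPM. *COL17A1*, a hemidesmosome collagen, was near the level of other PPDO cells, with 704 and 634 CPM against 692 and 670 CPM.

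The remaining genes named for low levels included *CXCL14*, *SOX6*, *CDH13*, *ANTXR1*, *FRMD4A* and *CACHD1*, which are among the 10 leading genes of cluster 0, a cluster that held no chosen cell in either library. *ROBO2*, a SLIT receptor, had 16.4 and 31.7 CPM in chosen cells and 234 and 268 CPM in others. *NRG1*, a ligand of ERBB receptors, had 129 and 121 CPM against 854 and 859 CPM, the chemokine *CXCL14* 27.3 and 30.1 CPM against 204 and 124 CPM, and the SOX factor *SOX6* 37.3 and 27.4 CPM against 260 and 277 CPM. *CDH13* and *ANTXR1*, an atypical cadherin and a collagen receptor, had 9.57 and 4.81 CPM against 77.6 and 56.2 CPM, and 26.7 and 29.3 CPM against 172 and 223 CPM. *FRMD4A*, *CACHD1*, *GABRA2*, *NDUFA4L2* and *VSNL1* completed the named genes, with differences of -2.03 to -3.09 on the log2 scale.

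**Figure D4:**
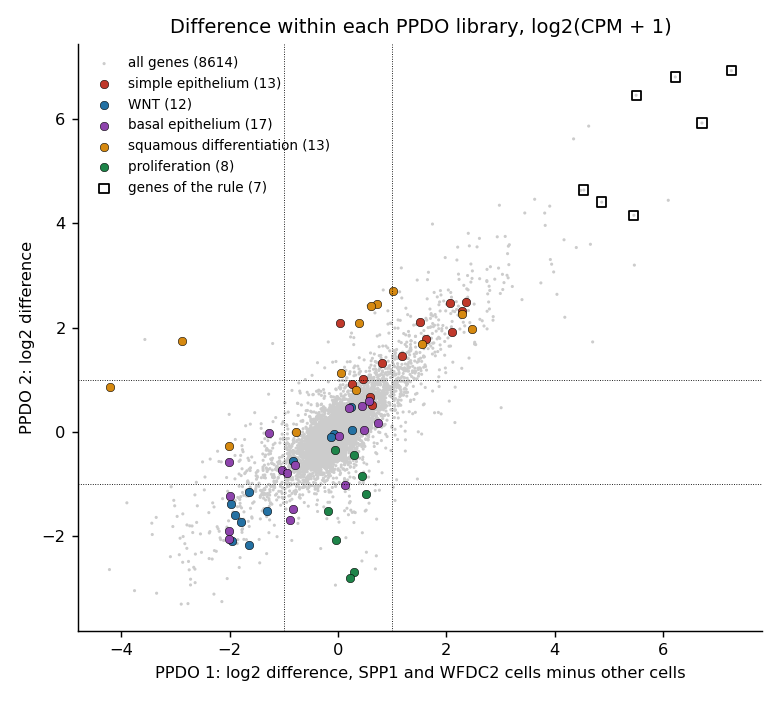
Log2 difference in CPM + 1 between SPP1 and WFDC2 cells and other PPDO cells in PPDO 1 (horizontal axis) and PPDO 2 (vertical axis), with 8614 genes in grey, genes of 5 lists in colour, the 7 rule genes as squares and dotted lines at 1 and -1. Simple epithelium genes lie to the upper right, WNT genes to the lower left, and proliferation genes near 0 in PPDO 1 but below it in PPDO 2.

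Squamous genes differed between the libraries. The proteases *KLK5* and *KLK7* and the crosslinking enzyme *TGM1* were higher in chosen cells of both, *KLK7* with 112 and 505 CPM against 22.1 and 104 CPM and *TGM1* with 26.6 and 44.7 CPM against 3.99 and 10.6 CPM. The *KLK7* level was 75.6 and 140 CPM in the chosen cells of cluster 7, near that of other PPDO cells in PPDO 2, and *TGM1* had 23.7 and 14.5 CPM there. *CNFN*, a cornified envelope protein, had 16.9 and 183 CPM against 7.90 and 27.1 CPM. It was past the fold, but its mean difference was -3.25 when chosen cells outside cluster 7 were left out. These were 4 of 13 genes measured, none was lower in both libraries, and the median was 0.39 and 1.74. *S100A8*, a calprotectin subunit, had 369 and 2854 CPM against 224 and 519 CPM, and *KRTDAP*, a keratinocyte secreted peptide, 18.6 and 1507 CPM against 361 and 834 CPM. Inside cluster 7 the chosen cells had 31.6 and 410 CPM of *S100A8* and 6.23 and 13.9 CPM of *KRTDAP*, under other PPDO cells in both libraries.

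Most chosen cells of both libraries were in cluster 7, and the others were spread over further clusters. In PPDO 2, 34 chosen cells (15.5%, 95% exact interval 10.9 to 20.9%) were in cluster 4, whose leading genes were *KLK7*, *SPINK5* and *IVL*, against 15 (5.62%, 3.18 to 9.10%) in PPDO 1. Chosen cells outside cluster 7 had lower *WFDC2*, 113 and 14.0 CPM against 425 and 189 CPM inside it, and lower *MUC13*, 20.3 and 4.93 CPM against 99.1 and 37.5 CPM. *KRT4* had 160 CPM outside and 451 CPM inside the cluster in PPDO 1, and 320 and 122 CPM in PPDO 2. A few cells carried it in PPDO 2, with 573 of 779 UMIs outside and 364 of 615 inside in 5 cells each, and the shares of cells with a *KRT4* UMI there were 25.4% and 21.7%. *SPP1* was 395 and 429 CPM outside and 507 and 631 CPM inside.

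Gene lists were also scored in single cells, and the chosen cells among the highest 10% of their library were counted. By simple epithelium genes, 82.4% and 83.6% of chosen cells were among them (95% exact intervals 77.3 to 86.8% and 78.1 to 88.3%), and 62.5% and 76.7% with cells thinned to 3000 UMIs. By mucosal genes they were 55.4% and 51.4%, and 37.1% and 36.1% with thinned cells. By duct transcription factors they were 27.3% and 35.0%, but 16.7% and 16.0% with thinned cells, and by duct transport genes 22.5% and 15.9%, but 20.1% and 10.5% with thinned cells. The last interval, 6.77 to 15.3%, holds the 10% of all cells. WNT genes placed 0.749% and 0.909% of chosen cells there, and basal genes 3.0% and 4.09%. Squamous genes placed 22.8% and 61.9% of the chosen cells outside cluster 7 among their highest 10%, and 4.29% and 5.73% of those inside it. Clusters were built from the same genes, so this split is a description.

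**Figure D5:**
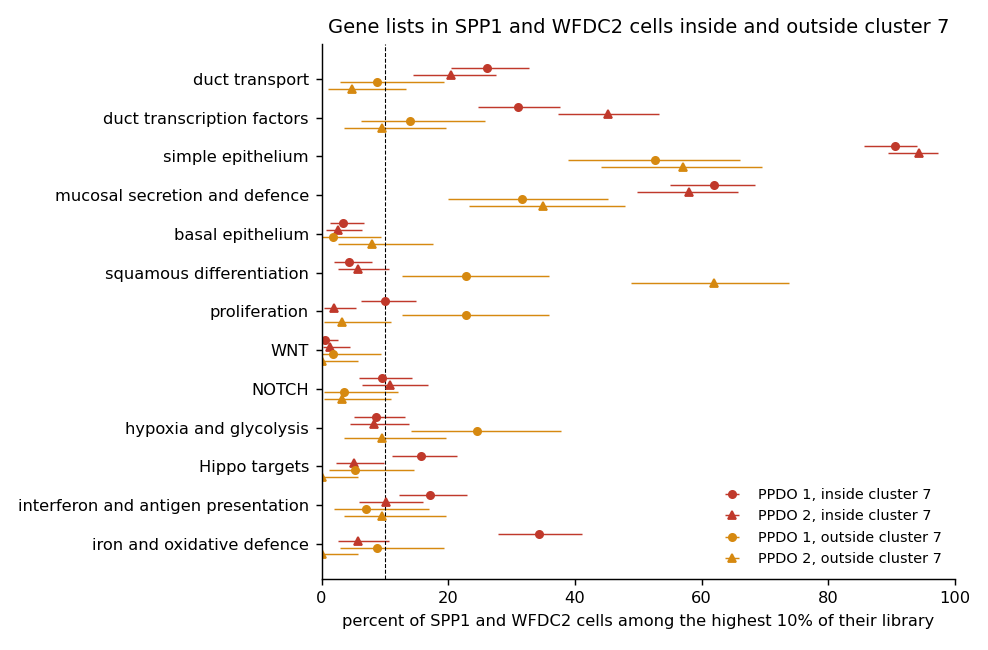
Percent of SPP1 and WFDC2 cells among the highest 10% of their library for 13 gene lists, inside (red) and outside (orange) cluster 7, with circles for PPDO 1, triangles for PPDO 2 and bars for 95% exact intervals, and a dashed line at 10%. Simple epithelium genes place 90.5% and 94.3% of the cells inside the cluster there, and squamous genes 61.9% of the PPDO 2 cells outside it.

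Proliferation genes differed between the libraries. None of 8 genes measured was past the fold in both, and the median was 0.26 in PPDO 1 and -1.35 in PPDO 2. *TOP2A*, a topoisomerase of dividing cells, had 25.9 CPM against 22 CPM in other cells of PPDO 1 and 4.55 against 37.5 CPM in PPDO 2. *CENPF*, a kinetochore protein, had 28.7 against 23.2 CPM and 4.55 against 34.6 CPM. Of chosen cells, 12.7% (34 of 267, 95% exact interval 8.98 to 17.3%) and 2.27% (5 of 220, 0.742 to 5.22%) were in the highest 10% by these genes. Each line is 1 library, so the difference between the lines was not tested.

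Of the lists of metabolism and signalling, few members were past the fold. Among iron and oxidative defence genes 2 of 11 were higher and 1 lower. *ALDH1A1*, a retinaldehyde dehydrogenase, had 1720 and 544 CPM against 299 and 168 CPM, *GSTA1*, a glutathione transferase, 96.6 and 14.4 CPM against 4.36 and 2.37 CPM, and the cytochrome *CYP1B1* 2.86 and 5.75 CPM against 16.9 and 23.4 CPM. Of 19 hypoxia and glycolysis genes only *PFKFB3*, which drives glycolytic flux, was higher, with 63.9 and 69.0 CPM against 25.7 and 30.1 CPM. Of 13 Hippo genes *AMOTL1* was lower, with 102 and 162 CPM against 422 and 357 CPM. *CCN2*, a secreted YAP target, had 84.0 against 9.54 CPM in PPDO 1 and 24.2 against 17.3 CPM in PPDO 2. None of 11 NOTCH genes or 7 interferon and antigen presentation genes was past the fold, with list medians of -0.06 and 0.05, and of 0.16 and -0.05.

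Markers of other cell types stayed low in the chosen cells. Summed endocrine markers were 14.0 and 13.1 CPM, against 429842 and 542676 CPM in primary endocrine-like cells, and summed stellate and mural markers 2.64 and 3.48 CPM against 17486 and 16522 CPM. Summed acinar markers were 63.2 and 72.9 CPM, mostly *RBPJL*, with 5 and 6 of 10 markers at 0. Immune markers summed to 114 and 120 CPM, of which the actin bundler *LCP1* gave 91.2 and 92.4 CPM. Schwann markers summed to 2779 and 2591 CPM, nearly all of it *ERBB3*, which PPDO and primary ductal-like cells also had. Ionocyte markers summed to 5.50 and 2.27 CPM against 0.456 and 0.530 CPM in other PPDO cells.

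To test how far the chosen cells were from the duct of the organ, their summed UMIs were set against the sums of primary ductal-like cells in edgeR (quasi-likelihood test, Benjamini-Hochberg adjustment, 2 against 2 libraries). The rule did not use primary cells, and the 7 rule genes get no call here. The primary class was named by its level of ductal markers, *CFTR*, *SCTR*, *SLC4A4*, *PKHD1* and *KRT7* among them, so their level in it is high by its naming. Of 17089 genes tested, 3433 (20.1%) were higher and 3595 (21.0%) lower in chosen PPDO cells at an adjusted p under 0.05. A gene near 0 in one group entered the test through the other group alone, so its direction was set by the low-count filter and it gets no p below. With the rule genes left out, 698 of 3429 higher genes and 1240 of 3594 lower genes would not have passed the filter on the lower group alone. Counts over gene lists include such genes and are a description. Other PPDO cells were compared with the same primary sums, which both comparisons share. Of 23525 genes, 5359 (22.8%) were higher and 4930 (21.0%) lower. The total of 7028 genes for chosen cells fell to 3302 when PPDO replicate 1 was left out and to 3386 for PPDO replicate 2. That of other PPDO cells went from 10289 to 5016 and 4598.

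Of the duct transport genes, 15 of 23 were lower and 4 higher in chosen PPDO cells, of which 2 and 3 would not have passed the filter on the lower group alone. The lower genes include *CFTR*, *SCTR*, *SLC4A4*, *PKHD1* and *AQP1*, markers by which the primary class was named, which get no p. The list had a median log2 fold change of -1.66 beside -0.06 over all genes. With *AQP1*, which had no UMI in chosen cells, at its bound the median was -1.52. In other PPDO cells 15 of 24 genes of the list were lower and 5 higher, with a median of -1.78, so the list medians were close. As a description, *CFTR* had a log2 fold change of -6.03 in chosen and -10.20 in other PPDO cells. *SCTR* differed by -5.87 and -9.65, and *SLC4A4* by -5.17 and -5.57. *SLC12A2* was higher in chosen cells, with a log2 fold change of 3.69 (SE 0.97, edgeR adjusted p = 0.038), but it did not pass without PPDO 1 (edgeR adjusted p = 0.137) or without PPDO 2 (edgeR adjusted p = 0.106).

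In other PPDO cells duct transcription factors were lower for 16 of 22 genes and higher for 3, with a median of -2.37. In chosen cells they were lower for 13 of 22 genes and higher for 3, with a median of -1.42. The log2 fold change was -4.09 for *SOX9* (SE 0.35, edgeR adjusted p = 0.00253), -6.66 for *PROX1* (SE 0.32, edgeR adjusted p = 0.000912) and -3.79 for *FOXA2* (SE 0.26, edgeR adjusted p = 0.00164), while for other PPDO cells the values were -6.97, -10.33 and -9.65. *KLF5* was among the higher genes. *TFCP2L1* had only 20 and 17 UMIs in primary ductal-like cells and 514 and 192 in chosen cells, and it would not have passed the filter without PPDO cells. *ELF3* did not pass the test in chosen cells, with a difference of -0.83 (SE 0.73, edgeR adjusted p = 0.41). Its level was 150 and 36.8 CPM in primary ductal-like cells. The make-up of this class differed between the libraries. A cluster led by *OSGIN1*, *AADAC* and *EREG* held 1213 of its 2186 cells and 39 of its 1188 cells. How far this mix set the spread of *ELF3* was not tested.

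Simple epithelium genes had a median near 0 in chosen cells. Of 17 genes 6 were higher and 4 lower, with a median of -0.28, and in other PPDO cells 4 of 20 were higher and 10 lower, with a median of -1.13. *KRT7* was higher in chosen cells by 1.90 (SE 0.17, edgeR adjusted p = 0.0028) and *KRT8* by 1.81 (SE 0.28, edgeR adjusted p = 0.00915), while other PPDO cells had -0.28 (edgeR adjusted p = 0.153) and 0.25 (edgeR adjusted p = 0.503). *KRT18* differed by 0.23 (SE 0.42, edgeR adjusted p = 0.69) in chosen cells and by -2.07 in others, and *CLDN7* by -0.28 (SE 0.20, edgeR adjusted p = 0.31) and -2.43. *EPCAM* stayed lower, with a log2 fold change of -1.14 (SE 0.25, edgeR adjusted p = 0.0239), but it did not pass without PPDO 1 (edgeR adjusted p = 0.108) or without PPDO 2 (edgeR adjusted p = 0.133). *CLDN10*, a paracellular channel of duct cells, was lower, with a log2 fold change of -6.58 (SE 0.28, edgeR adjusted p = 0.00085).

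Of the mucosal list 7 of 16 genes were higher and 6 lower, with a median of 0.21. *TFF3* was higher by 5.94 (SE 0.33, edgeR adjusted p = 0.00112), *AGR2* by 4.67 (SE 0.22, edgeR adjusted p = 0.000912) and *LCN2* by 3.57 (SE 0.24, edgeR adjusted p = 0.00156), and *C3* was lower, with a log2 fold change of -3.02 (SE 0.41, edgeR adjusted p = 0.00678, and 0.0549 without PPDO 1). Outside the small cluster with *TCN1*, primary ductal-like cells had 0.0929 and 0.0799 CPM of *TFF3*. That is under the filter level of 0.581 CPM, so the primary side of the *TFF3* comparison rested on that cluster. Of the genes named for high levels within PPDO, *S100A1* differed from primary ductal-like cells by 0.16 (SE 0.28, edgeR adjusted p = 0.68) and *PLAT* by -0.06 (SE 0.93, edgeR adjusted p = 0.96), while *MMP13*, at 0.251 and 0.552 CPM in the primary cells, had its direction set by the filter. A p over the threshold does not show that levels were equal.

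Basal and squamous genes mostly had higher levels in PPDO cells, chosen or not. Of 17 basal genes 14 were higher and 1 lower, with a median of 4.89, and of 21 squamous genes all 21 were higher, with a median of 8.58, or 8.28 with a gene at 0 UMIs at its bound. Of these, 6 of the 14 higher basal genes (*KRT5*, *KRT15*, *TP63*, *NGFR*, *PDPN* and *MMP3*) and 16 of the 21 squamous genes would not have passed the filter on primary ductal-like cells, so their direction was largely fixed by it, and the counts and medians are no test of these lists. In other PPDO cells 15 of 17 basal genes were higher, with a median of 4.76, and 22 of 24 squamous genes, with a median of 7.41. *DST*, a linker of hemidesmosomes, was the basal gene that was lower in chosen cells, with a log2 fold change of -3.60 (SE 0.26, edgeR adjusted p = 0.00185), and *SNAI2* and *LAMA3* did not pass the test. *KRT5* had 15 and 7 UMIs in primary ductal-like cells and 12445 and 38824 in chosen cells, and *TP63* 12 and 13 against 2508 and 2672. *SPRP*, a gene of cornified epithelium, had no UMI in primary ductal-like cells and 7.92 and 511 CPM in chosen cells, at least 67.0-fold higher against 3 counts per library. *TNNI2* and *KLK9* had none either and were at least 316-fold and 48.4-fold higher. The calprotectin family member *S100A12* had 1197 and 8201 CPM against 0.229 and 0.118 CPM, *KLK7* 112 and 505 CPM against 0 and 0.0394 CPM, and *FGFBP1*, a carrier of fibroblast growth factors, 3045 and 2710 CPM against 0.251 and 0.552 CPM.

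The genes named for the largest deficit were in part markers of other primary cells. *CLPS*, *PLA2G1B* and *PRSS2*, which encode acinar digestive proteins, had no UMI in chosen cells and were at least 523-fold, 298-fold and 290-fold lower than in primary ductal-like cells. *INS* had 1 UMI in all chosen cells, against 99.1 and 7752 CPM in primary ductal-like cells and 383752 and 528010 CPM in primary endocrine-like cells. *PRSS2* had 30856 and 48665 CPM in primary acinar-like cells. The part of free RNA in these levels was not tested. *LRRC4C*, *RGS17*, *VAT1L* and *SLITRK2*, which are no markers of the classes used here, were at least 417-fold, 287-fold, 177-fold and 161-fold lower.

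For the other lists, 4 of 13 WNT genes were higher in chosen cells than in the primary cells and 2 lower, with a median of -0.30, while in other PPDO cells 8 of 14 were higher and 2 lower, with a median of 1.23. *LEF1* was higher by 2.57 (SE 0.36, edgeR adjusted p = 0.00719), and *LGR6*, whose direction was set by the filter, had 7 and 11 UMIs in primary ductal-like cells and 171 and 211 in chosen cells. *ZNRF3* was lower, with a log2 fold change of -1.08 (SE 0.22, edgeR adjusted p = 0.0186), but it did not pass without PPDO 1 (edgeR adjusted p = 0.0604) or without PPDO 2 (edgeR adjusted p = 0.104). Of 20 hypoxia and glycolysis genes 13 were higher and none lower, with a median of 2.05, and *LDHA*, the lactate dehydrogenase of glycolysis, was higher by 4.78 (SE 0.19, edgeR adjusted p = 0.000848). Proliferation genes were higher for 5 of 17 and lower for 1, NOTCH genes higher for 5 of 17 and lower for 3, and Hippo genes higher for 2 of 14 and lower for 3. Interferon genes were higher for 3 of 12 and lower for 2, *IFIT1* and *SLA-DRA*. Neither of these 2 would have passed the filter on PPDO cells alone. Iron and oxidative defence genes were higher for 8 of 15 and lower for none. Over all genes 20.1% were higher and 21.0% lower in chosen cells. *NOTCH2*, a NOTCH receptor, was lower, with a log2 fold change of -2.80 (SE 0.23, edgeR adjusted p = 0.00232). In other PPDO cells 13 of 20 hypoxia and glycolysis genes were higher and none lower, with a median of 2.09. Proliferation genes were higher there for 13 of 17 and lower for none, and NOTCH genes for 7 and 7 of 17. The counts were 3 and 6 of 15 for Hippo, 4 and 4 of 13 for interferon, and 8 and 1 of 15 for iron and oxidative defence genes. Over all genes 22.8% were higher and 21.0% lower in other PPDO cells.

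A cluster of 29 and 15 primary ductal-like cells stood out by *TCN1* and was set beside the chosen PPDO cells. It was singled out after its values were seen, so what follows is a description. It had 1330 and 3435 CPM of *TCN1* and 215 and 190 CPM of *MUC13*, against 2.53 and 2.16 CPM, and 2.88 and 1.48 CPM, in the other primary ductal-like cells. A few cells carried this *TCN1* level, since 5 cells held 716 of its 926 UMIs in primary pancreas 1 and 964 of 1118 in primary pancreas 2, and only 17 of 29 and 14 of 15 cells had any. *SPP1* had 4007 and 4719 CPM in the cluster and *WFDC2* 1212 and 894 CPM. *KRT4* had 17 UMIs in 5 of 29 cells of primary pancreas 1 and none in primary pancreas 2, and *GABRP* 7 UMIs and none. *LGR5*, which was lower in chosen PPDO cells, had 382 and 593 CPM in the cluster against 1.21 and 4.91 CPM in other duct cells.

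The genes past the fold in the chosen PPDO cells were then read in this cluster. Of 336 genes higher in chosen cells, without the rule genes, 172 were measured in primary ductal-like cells and 61 (35.5%) were higher in the cluster past the same fold in both libraries. Over all 3806 genes measured in both comparisons 263 (6.91%) were. The shared genes were 23.2% of those 263, while over all 3806 genes 172 were higher in chosen cells. Of 186 genes lower in chosen cells 51 were measured, and 8 (15.7%) were higher in the cluster. In the lower direction it was 13 (7.56%) of the 172 genes and 12 (23.5%) of the 51, against 180 (4.73%) over all genes. The 7.56% was near the share over all genes, and the shares for the 51 genes rest on few genes. Both kinds of genes had shares above those over all genes in both directions, and none of these differences was tested. A gene nearly absent from other duct cells was measured only where the cluster was high, so the shares of higher genes are in part set by the CPM minimum. *TFF3* had 112 and 249 CPM in the cluster against 0.0929 and 0.0799 CPM in other duct cells, *LGALS1* 1155 and 243 CPM against 8.62 and 13.5 CPM, and *MDK* 820 and 544 CPM against 46.9 and 58.5 CPM. *GPRC5A* had 208 and 52.2 CPM against 6.83 and 0.919 CPM, and *PLAT* 600 and 92.2 CPM against 135 and 20.1 CPM. *PIGR* had 348 and 820 CPM in the cluster against 38.2 and 42.0 CPM.

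Genes of duct transport went both ways in the cluster. *CFTR* had 177 and 169 CPM against 955 and 803 CPM, but 1 cell of primary pancreas 2 held 37 of the 55 UMIs of its 15 cells, 7 of which had any, and the level was 55.3 CPM without it. *SLC4A4* had 1662 and 1186 CPM against 22602 and 26224 CPM. *CA4*, a carbonic anhydrase on the cell surface, had 69.0 and 76.8 CPM against 9.53 and 9.46 CPM in all primary ductal-like cells, and *KCNMA1* 386 and 415 CPM against 82.0 and 104 CPM. *SCTR* was close to other duct cells, with 517 and 734 CPM against 578 and 967 CPM. *MMP13* and *MAL* were not part of the shared pattern, with no *MMP13* UMI in the cluster. Against this cluster alone, 2414 genes differed in edgeR from chosen PPDO cells, and *TFF3* and *AGR2* then had log2 fold changes of -0.060 and -0.42. The sums of 29 and 15 cells are small, and how much of the lower count comes from that was not tested.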

How the data were processed

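Single-cell 3' RNA-seq (10x Chromium) of 4 libraries was deposited as UMI counts per feature and barcode, made by the authors with Cell Ranger 7.1.0 and an in-house pig annotation, and the submitters' processing notes name Sscrofa11.1. Deposited counts were used as they are, without removal of free RNA. Gene and extension features were summed per gene. PPDO barcodes with 1000 to 9000 features and at most 3% mitochondrial UMIs were kept, as were primary barcodes under 9000 features and 8% mitochondrial UMIs with over 400 features (first library) or over 800 features and 3000 UMIs (second), without those of a Scrublet score above 0.25 or 0.15. PPDO doublets were not removed. Cells were clustered with Scanpy 1.11.5 and leidenalg 0.10.2 (2000 variable genes, 20 components, 15 neighbours, resolution 0.5). Counts summed per library were tested with edgeR 4.0.16 in R 4.3.3 (TMM, filterByExpr, quasi-likelihood, Benjamini-Hochberg), with DESeq2 1.42.0 as an alternative, after the scripts were tested on simulated data. SE is the log2 fold change divided by the root of F. Within PPDO, log2(CPM + 1) differences understate changes of low genes.

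The cells and gene lists were chosen with earlier results of these data known. Besides rule genes and lists (247 of 281 genes matched), the 12 genes in each direction with the largest smaller-library difference and at least 50 CPM in the higher set, and the 8 with the largest fold change against primary cells, a mean of at least 50 CPM and no overlap of groups, were named. Other genes were named after their values were seen, *PIGR* and *LGR5* in the TCN1 cluster among them. Primary clusters were named from 7 marker lists, a choice made after the clusters were seen.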

Additional observations from a re-analysis of the deposited data

Results flagged for a closer look

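For *SLPI* and *SPRP* the chosen cells of the 2 organoid libraries moved in opposite directions against the other cells of their library, and the difference between the libraries was not tested. *SLPI*, a secreted inhibitor of neutrophil elastase, differed by -1.21 in PPDO 1 and by 1.69 in PPDO 2 on the log2(CPM + 1) scale, with 64.8 and 868 CPM in chosen cells and 151 and 267 CPM in other PPDO cells. *SPRP* differed by -2.87 and 1.74, with 7.92 and 511 CPM against 64.3 and 152 CPM. The chosen cells outside cluster 7 carried the PPDO 2 direction, with 2602 CPM of *SLPI* and 1561 CPM of *SPRP*. Inside the cluster *SLPI* had 28.1 and 29.7 CPM and *SPRP* 3.63 and 3.57 CPM, under other PPDO cells in both libraries. Of 8614 genes measured, 5 were at least 1 apart from 0 in opposite directions. Both genes are among the leading genes of the squamous clusters, *SLPI* of cluster 4 and *SPRP* of cluster 8.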

How the results depend on the processing

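Against primary ductal-like cells, the number of genes called stayed within 1.5 times of 7028 for chosen and 10289 for other PPDO cells under DESeq2 (7321 and 11057), without a low-count filter, with thinned sums and with doublets kept. Leaving out 1 library gave 3302 to 5830 and 4598 to 10678 genes, where a lone library is assumed to vary like the other group. Replicate numbers did not pair the libraries (correlation of same-numbered deviations -0.029), and a replicate block gave 5470 and 8501 genes. Against the primary TCN1 cluster alone, chosen after seeing the data, 2414 genes were called, and the log2 fold change turned for *CA12* (4.96), *ATP1B1* (0.48), *AGR2* (-0.42), *TFF3* (-0.060), *LCN2* (-0.76), *CLU* (0.012), *RNF43* (-0.67), *APCDD1* (-0.074), *MDK* (-2.27) and *LGALS1* (-0.99). *NRG1* turned to -0.60 with the highest 1% of each library. Of 84 named genes called against primary ductal-like cells, 17 and 14 no longer passed without PPDO replicate 1 or 2, 7 and 6 without primary pancreas replicate 1 or 2, 7 and 3 with the highest 1% or 5%, and 21 against the TCN1 cluster alone, *KRT7*, *KRT8*, *SLC4A4*, *LEF1* and *NOTCH2* among them. Under the replicate block *CA12*, *AQP1* and *APCDD1* did not pass, and 1 or 2 genes did not under each of 4 other settings, the filter, the thinned sums, the Scrublet score and the chosen cells of cluster 7 alone. The cause was not tested.

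Within PPDO, 529 genes past the fold became 836 with the highest 1%, 832 without the CPM minimum and 881 to 886 with 1 library. With the highest 5% there were 372, which shared 234 of the 343 higher and 123 of the 186 lower genes. With all cells of cluster 7 in place of the chosen cells there were 476, which shared 279 and 114. *CNFN* turned to -3.44 with all cells of cluster 7 in place of the chosen cells and to -3.25 with the chosen cells of cluster 7 alone. The left-out gene differed by 4.38 to 5.38 with 1 library against 5.21. The share of rule-gene UMIs held, 67.8% as a mean of the libraries, was 41.8% with the highest 1% and 76.2% with the highest 5%, and 64.5 to 71.0% with 1 library, and the share of chosen cells in the highest 10% by proliferation genes, 7.5%, was 2.27 to 12.7%, all chosen after seeing the data. With 267 and 220 cells, genes under 10 CPM were not counted, so a difference there was not detectable in these counts.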

Other observations

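High *CFTR* counts were found in few organoid cells. In each PPDO library 6 cells had at least 5 *CFTR* UMIs, and 3 and 4 of them were chosen cells. The cell with the most had 71 *CFTR* UMIs among 78089 in PPDO 1, together with 22 of *SLC4A4*, 5 of *SOX9*, 177 of *KRT7*, 98 of *SPP1* and 1 of *SCTR*, and none of *PKHD1*. In PPDO 2 the cell with the most had 24 *CFTR* UMIs among 35366, with 17 of *SLC4A4*, 2 of *SOX9* and 67 of *KRT7*, and none of *SCTR*, *PKHD1* or *SPP1*. Both were chosen cells.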
